A study of Mus musculus with 9 samples.

Results

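Gene expression in the mammary gland at day 10 of lactation was compared with that at puberty, probe set by probe set. The comparison rests on 5 of the 9 arrays of a series on mammary development: 2 arrays of lactating females and 3 of virgin females aged 6 weeks. All members are the 12422 probe sets of the Affymetrix MG-U74Av2 array that are not controls, of 12488 in the deposited values. Every mouse was a wild type female of the inbred line C57BL/6J, and RNA came from the whole inguinal gland (gland no. 4), so that milk-producing cells, fat, vessels, immune cells and any attached tissue were measured together. The age of the lactating females is not given in the sources used here. The other 4 arrays were of females at day 14 of pregnancy (2 arrays) and at day 4 of involution after weaning (2 arrays), and they helped to estimate the spread between arrays. Each array is a biological replicate, with RNA of 1 female. A signal is a linear intensity in arbitrary units, scaled to the same median on each array, and a log2 change is the mean log2 signal at lactation minus that at puberty, with signals under 20 (the floor) set to 20. Where only some arrays of a group lay under the floor, the size of a log2 change depends on the floor. Where all arrays of a group did, a lower bound of the fold is given. Testing covered the 9783 probe sets whose mean signal exceeded 20 in 1 or more of the 4 stages. The test was limma's moderated one, and a probe set was called when its p-value, adjusted by the Benjamini-Hochberg method across those 9783, was below 0.05. The adjusted p-values and standard errors (SE) of log2 changes below are from that test, and in each gene named below as called the signals of the lactation arrays did not overlap those of the puberty arrays.

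During puberty the mammary gland is a thin tree of ducts inside a pad of fat. In pregnancy, prolactin and progesterone drive the growth of alveoli, whose luminal cells secrete milk under prolactin, the kinase JAK2 and the transcription factor STAT5, while basal myoepithelial cells contract to eject it. The secretory cell exports caseins and whey proteins through the endoplasmic reticulum (ER) and the Golgi, makes lactose in the Golgi, and buds fat droplets into the milk inside a coat of its own membrane.

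STAT factors bind DNA at the palindrome TTCNNNGAA, where N is any base, so the promoters of the milk protein genes are shown first. The windows are RefSeq's for the assembly GRCm38.p6 and run from 250 bases before to 50 bases after a gene's start. Of the 10 milk protein genes tested, 8 had a window and 4 of these held the motif. Glycam1, Csn1s1 and Csn2 held it in the stretch from 160 to 61 bases before the start, which is printed 5′ to 3′ on the gene's strand, with the motif in capitals.
Csn1s1 (αS1-casein), chr5:87666048-87666147, plus strand: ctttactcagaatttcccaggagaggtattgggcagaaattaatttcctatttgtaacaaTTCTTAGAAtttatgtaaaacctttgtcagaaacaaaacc
Csn2 (β-casein), chr5:87699486-87699585, minus strand: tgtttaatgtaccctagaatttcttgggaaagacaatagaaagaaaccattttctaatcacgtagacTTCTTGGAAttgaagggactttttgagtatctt
Glycam1 (a milk mucin), chr15:103565142-103565241, minus strand: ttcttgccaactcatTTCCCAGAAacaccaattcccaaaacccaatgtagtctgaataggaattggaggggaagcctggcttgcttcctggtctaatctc
In these promoters the motif began 100, 93 and 145 bases before the start. In Csn1s2a it lay downstream of the start, and the windows of Lalba, Wap, Ltf and Cel did not hold these letters. The pattern reads the same on both strands, and 2726 of all 32851 windows (8.3%) held it. Among genes with a window it was found in 8.9% of the 1415 called higher at lactation, in 8.81% of the 1374 called lower and in 7.86% of the 2875 not called.

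At lactation, 2550 of the 9783 probe sets were called higher than at puberty (26.1%) and 2130 lower (21.8%), so that 47.8% differed in either direction. Changes of at least 8-fold were seen in 129 probe sets called higher and 113 called lower, and changes of at least 32-fold in 38 and 8. The 2 lactation arrays lay above all 3 puberty arrays in 3734 probe sets (38.2%) and below all of them in 3014 (30.8%). The median log2 change over the tested probe sets was 0.09. With the probe sets in 4 equal groups by mean signal, 31.5% of the dimmest group and 64.8% of the brightest were called. In the plot of change against signal the mean includes the lactation arrays, so that a large rise itself moves a probe set to the bright end.

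**Figure D1:**
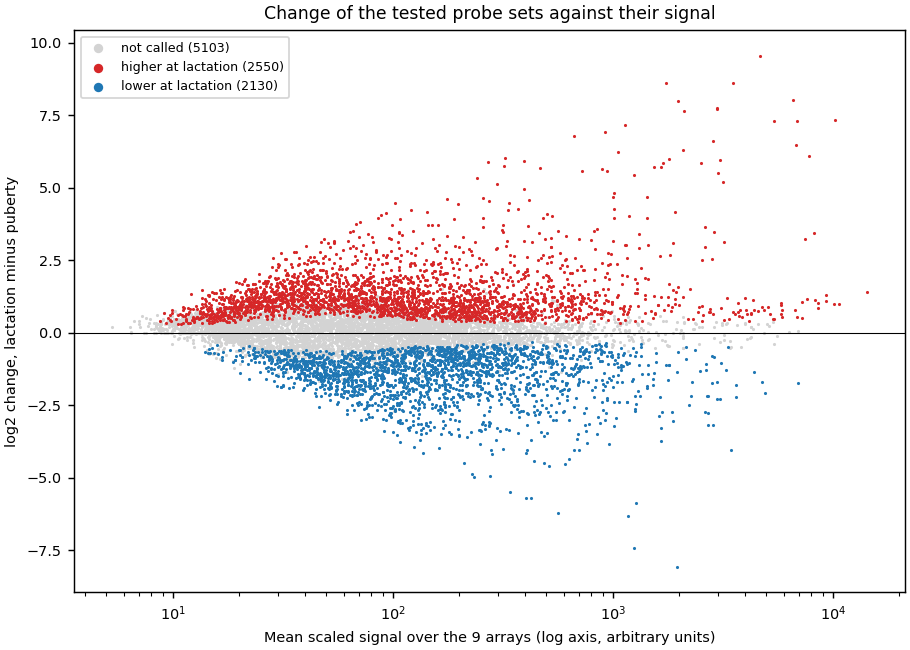
Each point is 1 of the 9783 tested probe sets, with its mean scaled signal over the 9 arrays on a log axis and its log2 change at lactation against puberty. Red points were called higher (2550) and blue points lower (2130), and the rises reach 9.55 while the falls reach -8.07.

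The arrays of each group were alike, with Pearson correlations across probe sets of 0.969 to 0.975 among the puberty arrays and 0.947 between the lactation arrays, against 0.724 to 0.774 between a lactation and a puberty array. The 10 brightest probe sets took 9.09% and 7.53% of all signal at lactation but 3.47% to 3.78% at puberty. The ratio of the 3′ to the 5′ control probe sets of Gapdh, a measure of RNA integrity, was 1.43 and 1.29 at lactation, 0.868 to 0.990 at puberty, 1.15 and 1.16 in pregnancy and 4.34 and 4.71 at involution, and its part in the results was not tested. Puberty replicate 1 stood apart from the other puberty arrays in the casein and Wap signals, and the puberty arrays differed among themselves in skeletal muscle genes, as the values below show.

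Milk protein genes were among the largest rises of the comparison. All 10 members of the list were called higher, with a median log2 change of 7.30, against a background of 26.1% of probe sets called higher. Their summed signal was 167636 to 209931 at lactation and 2977 to 5137 at puberty. Lalba, which encodes α-lactalbumin, the whey protein that makes galactosyltransferase a lactose synthase, had signals of 22882 and 18355 at lactation against 48.9, 19.98 and 21.0 at puberty. The groups were far apart, and Lalba rose by 9.55 log2 units (SE 0.44, adjusted p = 2.79e-06), which is 748-fold. Csn1s2b, the gene of a calcium-binding casein, gave 18845 and 12378 at lactation against 4.86, 62.4 and 48.9 at puberty. Csn1s2b rose by 8.60 log2 units (SE 0.74, adjusted p = 4.12e-05). Csn3, which encodes κ-casein, the protein that stabilises the casein micelle, gave 25137 and 19813 at lactation against 362, 336 and 283 at puberty, with an even level in both groups, and rose by 6.10 log2 units (SE 0.20, adjusted p = 7.34e-07). Cel, the gene of the bile salt-stimulated lipase of milk, gave 7718 and 6523 at lactation against 112, 130.2 and 93.8 at puberty. Cel rose by 6.00 log2 units (SE 0.19, adjusted p = 7.34e-07). Glycam1 was already well expressed before lactation, with 26472 and 20679 at lactation against 2348, 2679 and 2442 at puberty. Glycam1 rose by 3.23 log2 units (SE 0.23, adjusted p = 1.6e-05). Ltf, which encodes the iron-binding protein lactoferrin, gave 4435 and 8938 at lactation against 72.2, 135 and 136 at puberty, with the lactation arrays further from each other than for the caseins, and rose by 5.84 log2 units (SE 0.45, adjusted p = 2.45e-05).

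For Wap and several caseins the puberty arrays disagreed. Wap, the gene of whey acidic protein, gave 31976 and 25788 at lactation against 4.09, 696 and 436 at puberty. Csn1s1 gave 31027 and 23559 at lactation against 16.8, 657 and 352 at puberty, Csn2 gave 17606 and 12441 at lactation against 4.86, 238 and 171 at puberty and Csn1s2a, the gene of an αS2-casein, gave 23832 and 19163 at lactation against 3.43, 183 and 152 at puberty. In each of these 4 genes puberty replicate 1 lay under the floor and the other 2 puberty arrays well above it, while both lactation arrays were far higher. Wap rose by 7.30 log2 units (SE 1.24, adjusted p = 0.00149), Csn1s1 by 7.34 (SE 1.19, adjusted p = 0.00115), Csn2 by 7.31 (SE 0.87, adjusted p = 0.000226) and Csn1s2a by 8.02 (SE 0.84, adjusted p = 0.000114). Without puberty replicate 1 the log2 changes were 5.70 for Wap, 5.81 for Csn1s1, 6.20 for Csn2 and 7.002 for Csn1s2a, with adjusted p of 2.92e-05 or less in limma's test. Without puberty replicate 2 they were 8.27, 8.33, 7.98 and 8.60, and without puberty replicate 3 Wap stood at 7.93.

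**Figure D2:**
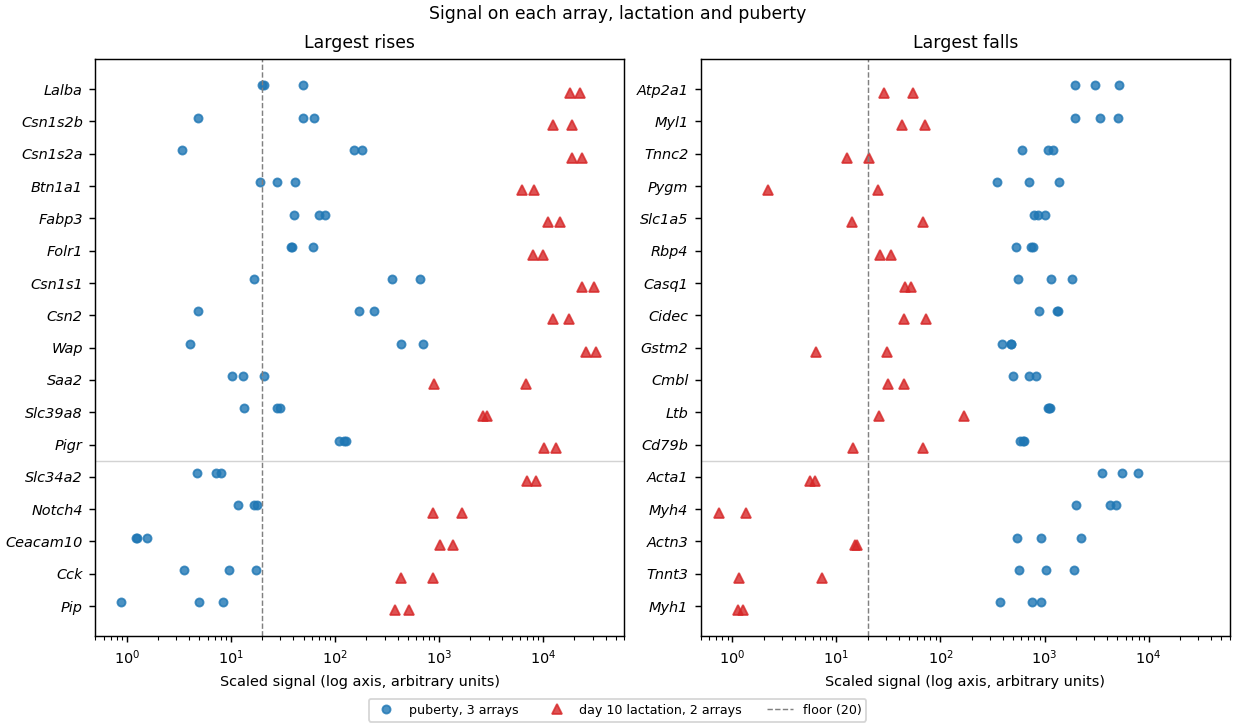
Scaled signal on a log axis for the genes with the largest rises and falls, with 1 point per array (circles, 3 puberty arrays; triangles, 2 lactation arrays) and the floor of 20 as a dashed line. Above the grey line are the 12 largest changes with both groups measured, and below it the 5 largest with 1 group wholly under the floor. In every gene shown the 2 groups are separate, and puberty replicate 1 lies far below the other puberty arrays for Wap (4.09 against 696 and 436) and several caseins.

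The genes of the milk fat globule rose with the milk proteins. Of 9 tested, 8 were called higher and none lower, with a median log2 change of 4.26. Btn1a1, which encodes butyrophilin, the main membrane protein of the globule, had signals of 8143 and 6273 at lactation against 27.9, 41.2 and 19.05 at puberty. Btn1a1 rose by 7.97 log2 units (SE 0.38, adjusted p = 2.94e-06). Its partner Xdh, the gene of xanthine oxidoreductase, gave 3800.0 and 3316 at lactation against 206, 176 and 176 at puberty. Xdh rose by 4.26 log2 units (SE 0.18, adjusted p = 2.19e-06). Mfge8, which encodes the globule protein lactadherin, gave 26617 and 19451 at lactation against 2060.0, 2095 and 2161 at puberty. Mfge8 rose by 3.43 log2 units (SE 0.24, adjusted p = 1.55e-05). The droplet coat gene Plin2 gave 8574 and 8023 at lactation against 1062, 796 and 993 at puberty. Plin2 rose by 3.14 log2 units (SE 0.16, adjusted p = 3.26e-06). Muc1, the gene of a mucin of the apical membrane, gave 4474 and 4212 at lactation against 108, 103 and 88.6 at puberty. Muc1 rose by 5.45 log2 units (SE 0.20, adjusted p = 8.51e-07). Fabp3, which encodes a fatty acid carrier of the cytosol, gave 14683 and 11282 at lactation against 70.5, 40.3 and 79.5 at puberty, a rise of 211-fold (log2 change 7.72, SE 0.27, adjusted p = 8.51e-07). Cd36, the gene of a fatty acid receptor, was not called (log2 change 0.56, SE 0.24, adjusted p = 0.0926).

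Enzymes of fat synthesis rose too, with smaller changes by their median. In the fatty acid synthesis list 10 of 13 genes were called higher and none lower, with a median of 0.999, and under quantile normalization 6 were called higher. Fads1, which encodes the Δ5 desaturase, gave 2934 and 3525 at lactation against 192, 178 and 264 at puberty. Fads1 rose by 3.95 log2 units (SE 0.20, adjusted p = 3.58e-06). Elovl5, the gene of an elongase of polyunsaturated fatty acids, rose by 3.09 log2 units (SE 0.15, adjusted p = 3.26e-06), and Acly, which encodes the enzyme that splits citrate to acetyl-CoA, rose by 2.53 log2 units (SE 0.21, adjusted p = 3.96e-05). Fasn, the gene of fatty acid synthase itself, was bright in both groups, with 7328 and 6710.2 at lactation against 4171, 3695 and 4840.5 at puberty, and rose by 0.74 log2 units (SE 0.18, adjusted p = 0.00822), but stood at -0.08 under quantile normalization and did not pass without lactation replicate 1 (adjusted p = 0.0641). Scd1, the gene of the main stearoyl-CoA desaturase of fat, was at 16410.1 and 20480.5 at lactation against 9626, 9125 and 8784 at puberty and rose by 0.999 log2 units (SE 0.21, adjusted p = 0.00411), but stood at -0.48 (adjusted p = 0.122 in limma's test) under quantile normalization and did not pass without lactation replicate 2 (adjusted p = 0.0574). Srebf1, which encodes a regulator of these enzymes, was not called (log2 change -0.15, SE 0.19, adjusted p = 0.545).

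Triglyceride assembly was split, with 4 genes called higher and 3 lower of 11 and a median of -0.16. These are 36.4% and 27.3%, against 26.1% and 21.8% of all tested probe sets. Lpin1, the gene of a phosphatidate phosphatase, rose by 1.82 log2 units (SE 0.24, adjusted p = 0.000391), Agpat1, which encodes an acyltransferase, rose by 1.92 log2 units (SE 0.24, adjusted p = 0.000328), and Acsl4, the gene of an acyl-CoA synthetase, rose by 1.87 log2 units (SE 0.20, adjusted p = 0.000139). Gpam, which encodes the mitochondrial acyltransferase of the first step, fell by 1.99 log2 units (SE 0.15, adjusted p = 2.41e-05) from signals of 941, 1189.8 and 1077 at puberty to 245 and 294. Dgat1, the gene of the last acyltransferase of triglyceride synthesis, fell by 1.42 log2 units (SE 0.17, adjusted p = 0.000268). White adipocyte markers fell in the same comparison (given below), and their part in the falls of this list was not tested. In cholesterol synthesis 9 of 16 genes were called higher and none lower, with a median of 1.04. Fdps, the gene of farnesyl diphosphate synthase, gave 1559 and 1816 at lactation against 282, 287 and 292 at puberty. Fdps rose by 2.55 log2 units (SE 0.25, adjusted p = 8.96e-05). Sqle, which encodes squalene epoxidase, gave 472 and 605 at lactation against 118, 116 and 84.6 at puberty. Sqle rose by 2.35 log2 units (SE 0.22, adjusted p = 7.26e-05), while Hmgcs1, the gene of the synthase that feeds the pathway, was not called (log2 change -0.22, SE 0.29, adjusted p = 0.563).

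Carriers of ions, vitamins and amino acids changed in both directions. Of 20 genes 13 were called higher and 4 lower, with a median of 1.65. Slc34a2, which encodes a phosphate cotransporter, lay under the floor on every puberty array (7.997, 4.78 and 7.13) and reached 8612 and 6999.6 at lactation, which is at least 388-fold higher (adjusted p = 1.74e-07 in limma's test). Folr1, the gene of a folate receptor, gave 9952 and 8047 at lactation against 37.9, 61.6 and 38.5 at puberty. Folr1 rose by 7.64 log2 units (SE 0.28, adjusted p = 8.51e-07). Slc39a8, which encodes a zinc and manganese importer, gave 2902 and 2672 at lactation against 13.3, 27.5 and 29.9 at puberty. Slc39a8 rose by 6.78 log2 units (SE 0.24, adjusted p = 8.51e-07). Abcg2, which pumps riboflavin and drugs into milk, gave 4126 and 3532 at lactation against 70.6, 86.6 and 81.6 at puberty. Abcg2 rose by 5.59 log2 units (SE 0.19, adjusted p = 8.51e-07). Among the amino acid carriers, Slc7a5, the light chain of the exchanger of large neutral amino acids, gave 2120.2 and 1415 at lactation against 192, 137 and 138 at puberty. Slc7a5 rose by 3.49 log2 units (SE 0.22, adjusted p = 9.61e-06), and its heavy chain Slc3a2 rose by 1.51 log2 units (SE 0.14, adjusted p = 6.75e-05). Slc1a4, a carrier of small neutral amino acids, rose by 2.97 log2 units (SE 0.16, adjusted p = 4.97e-06). Its relative Slc1a5, a glutamine carrier, went the other way, with 14.1 and 68.2 at lactation against 792, 873 and 1014 at puberty. Slc1a5 fell by 4.59 log2 units (SE 0.44, adjusted p = 7.59e-05). The lactation arrays differed from each other for Slc1a5, with log2 changes of -3.70 and -5.47 when lactation replicate 1 or 2 was left out. Slc12a2, the sodium, potassium and chloride cotransporter, fell by 1.42 log2 units (SE 0.15, adjusted p = 0.000114) and Slc6a6, the taurine carrier, fell by 1.44 log2 units (SE 0.16, adjusted p = 0.000187).

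In the calcium list, 2 of 7 genes were called higher (28.6%, against 26.1% of all tested probe sets) and 3 lower (42.9%, against 21.8%). Atp2b2, which encodes the plasma membrane pump that secretes calcium into milk, gave 366 and 321 at lactation against 26.8, 12.3 and 10.5 at puberty. Atp2b2 rose by 3.96 log2 units (SE 0.21, adjusted p = 3.58e-06). Car2, the gene of a carbonic anhydrase, gave 504 and 452 at lactation against 39.4, 45.8 and 44.0 at puberty. Car2 rose by 3.47 log2 units (SE 0.14, adjusted p = 1.94e-06), while Atp2a3, which encodes a calcium pump of the ER, fell by 1.75 log2 units (SE 0.22, adjusted p = 0.000298) and Stim1, the gene of an ER calcium sensor, fell by 1.44 log2 units (SE 0.21, adjusted p = 0.000708). In the list of lactose and nucleotide sugars 6 of 13 were called higher and 2 lower, and 3 were called higher with a filter of 100. B4galt1, the galactosyltransferase that joins α-lactalbumin in lactose synthase, gave 4368 and 3099 at lactation against 453, 523 and 502 at puberty. B4galt1 rose by 2.90 log2 units (SE 0.16, adjusted p = 5.01e-06). Slc35a2, the Golgi carrier of UDP-galactose, rose by 1.24 log2 units (SE 0.23, adjusted p = 0.0021) and Cmas, which activates sialic acid, rose by 1.87 log2 units (SE 0.14, adjusted p = 2.25e-05). Ugdh, which draws UDP-glucose off to glucuronate, gave 102 and 106 at lactation against 542, 628 and 659 at puberty. Ugdh fell by 2.55 log2 units (SE 0.13, adjusted p = 3.77e-06), and Pgm1, a phosphoglucomutase, fell by 1.97 log2 units (SE 0.20, adjusted p = 0.000109). Ugp2, which makes UDP-glucose, was not called (log2 change -0.23, SE 0.28, adjusted p = 0.526).

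The machinery that carries proteins into the ER was raised broadly. Of 24 genes 18 were called higher and none lower, with a median log2 change of 1.34 against 0.09 over all tested probe sets. Tram1, which encodes a protein of the translocon, gave 2522 and 2267 at lactation against 402, 515 and 530.0 at puberty. Tram1 rose by 2.32 log2 units (SE 0.20, adjusted p = 3.97e-05). Ssr2, a subunit of the translocon-associated complex, gave 721 and 718 at lactation against 174, 176 and 155 at puberty. Ssr2 rose by 2.10 log2 units (SE 0.14, adjusted p = 1.04e-05). Srpr, the receptor for the signal recognition particle, rose by 1.99 log2 units (SE 0.15, adjusted p = 1.86e-05) and Sec61b, a subunit of the channel, rose by 1.64 log2 units (SE 0.12, adjusted p = 2.16e-05). The channel's main subunit Sec61a1 rose by 1.31 log2 units (SE 0.23, adjusted p = 0.00162).

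Of the ER folding genes 13 of 25 were called higher and 1 lower, with a median of 0.68. Qsox1, which encodes a sulfhydryl oxidase that forms disulfide bonds, had the largest change of the list, with 10434 and 7462 at lactation against 98.7, 125 and 115 at puberty. Qsox1 rose by 6.30 log2 units (SE 0.41, adjusted p = 1.13e-05). Xbp1, the gene of a transcription factor of secretory cells, gave 1959.6 and 2019 at lactation against 513, 547 and 386 at puberty. Xbp1 rose by 2.06 log2 units (SE 0.21, adjusted p = 9.47e-05). P4hb, the gene of protein disulfide isomerase, gave 3208 and 2431 at lactation against 380.4, 252 and 133 at puberty. P4hb rose by 3.58 log2 units (SE 0.43, adjusted p = 0.000241). The chaperone gene Hspa5 (BiP) gave 1813 and 1438 at lactation against 1082, 781 and 574 at puberty. Hspa5 rose by 1.04 log2 units (SE 0.24, adjusted p = 0.00708), but did not pass under quantile normalization (adjusted p = 0.0511) or without lactation replicate 1 (adjusted p = 0.103). Herpud1, a gene of ER-associated degradation, was the 1 member called lower, with 146 and 157 at lactation against 278, 298 and 279 at puberty (log2 change -0.91, SE 0.13, adjusted p = 0.000687). Ddit3, which encodes the stress factor CHOP, was not called (log2 change -0.87, SE 0.48, adjusted p = 0.168).

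Vesicle transport between ER and Golgi had 17 of 27 genes called higher and 1 lower, with a median of 0.68. Lman1, a cargo receptor, gave 1085 and 1136 at lactation against 260.5, 259 and 248 at puberty. Lman1 rose by 2.12 log2 units (SE 0.12, adjusted p = 5.24e-06), and Surf4, another cargo receptor, rose by 1.46 log2 units (SE 0.16, adjusted p = 0.000134). The COPII coat genes Sec23b and Sec23a moved apart: Sec23b rose by 1.70 log2 units (SE 0.23, adjusted p = 0.000405), whereas Sec23a fell by 0.43 log2 units (SE 0.14, adjusted p = 0.0275). Sec23a did not pass without puberty replicate 1, 2 or 3 (adjusted p = 0.0614, 0.0553 and 0.074).

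Genes that load tRNAs with amino acids were called higher in 12 of 19 cases and lower in none, with a median of 0.71, and in 7 cases without lactation replicate 1. Rars, for arginine, gave 568 and 548 at lactation against 164, 187 and 176 at puberty. Rars rose by 1.67 log2 units (SE 0.13, adjusted p = 2.46e-05). Qars, for glutamine, rose by 1.01 log2 units (SE 0.15, adjusted p = 0.000653), while Wars, for tryptophan, was not called by its brightest probe set (log2 change 0.11, SE 0.15, adjusted p = 0.584). Of the 3 probe sets of Wars, 1 was called higher (log2 change 1.35) and 1 lower (-1.07). Cytosolic ribosomal protein genes were called higher in 12 of 27 cases and lower in 3 (1 of them Rpl22, whose probe sets disagree) on the median scale, but higher in 1 and lower in 6 under quantile normalization, which moved their median from 0.41 to -0.16. Rplp0, of the ribosomal stalk, gave 11362 and 10923 at lactation against 5085, 5744 and 5337 at puberty and a log2 change of 1.05 (SE 0.16, adjusted p = 0.000797), but -0.17 under quantile normalization. Eef1a1, the elongation factor that delivers tRNAs, gave 16632 and 14878 at lactation against 7499.7, 7806 and 8265 at puberty and a log2 change of 1.003 (SE 0.18, adjusted p = 0.00191), but -0.40 (adjusted p = 0.0459 in limma's test) under quantile normalization. Of the translation factors 8 of 26 were called higher and 2 lower, against 4 higher under quantile normalization, 5 higher and none lower without lactation replicate 2, and 1 lower without lactation replicate 1.

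Most genes of fatty acid oxidation fell. Of 18 genes 15 were called lower, against a background of 21.8%, and 2 higher, with a median log2 change of -1.50. Decr1, the dienoyl-CoA reductase of unsaturated fats, gave 26.4 and 25.2 at lactation against 281, 291 and 266 at puberty. Decr1 fell by 3.44 log2 units (SE 0.16, adjusted p = 2.94e-06). Acadm, the dehydrogenase of medium chains, gave 262 and 319 at lactation against 1470.0, 1443 and 1669 at puberty. Acadm fell by 2.40 log2 units (SE 0.15, adjusted p = 7.65e-06). Cpt1a, the gate for entry of long chains into mitochondria, gave 52.2 and 69.5 at lactation against 461, 407 and 353 at puberty. Cpt1a fell by 2.75 log2 units (SE 0.21, adjusted p = 2.46e-05). Hadhb, a subunit of the trifunctional protein, fell by 1.71 log2 units (SE 0.15, adjusted p = 5.58e-05). Ucp3, an uncoupling protein, went up, with 619.8 and 321 at lactation against 104, 80.8 and 146 at puberty (log2 change 2.06, SE 0.39, adjusted p = 0.00263), as did Acads, the dehydrogenase of short chains (log2 change 1.11, SE 0.27, adjusted p = 0.0098). Neither passed without lactation replicate 1 (adjusted p = 0.0586 for Ucp3 and 0.117 for Acads), and Acads did not pass without lactation replicate 2 (adjusted p = 0.0566). A second probe set of Acads was called lower (log2 change -0.83), so its direction depends on the probe set. The falls of this list stand beside the falls of adipocyte and muscle markers given below, whose part in them was not tested.

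Glycolysis, the citric acid cycle and the respiratory chain were mixed. Of 16 glycolytic genes 4 were called higher (25%, against 26.1% of all tested probe sets) and 7 lower (43.8%, against 21.8%), with a median of -0.42. The shares called higher and lower were 23.8% and 38.1% in the citric acid cycle list, and 30% and 20% in the pentose phosphate and NADPH list. Pfkl, the phosphofructokinase of liver, gave 1935 and 1660.2 at lactation against 582, 504 and 455 at puberty. Pfkl rose by 1.81 log2 units (SE 0.16, adjusted p = 5.67e-05), and Pgk1, phosphoglycerate kinase, rose by 0.99 log2 units (SE 0.17, adjusted p = 0.00161). Of 21 genes of the cycle and its supply 5 were called higher and 8 lower (5 lower without lactation replicate 1). Cs, citrate synthase, rose by 0.73 log2 units (SE 0.18, adjusted p = 0.0108), but did not pass under quantile normalization (adjusted p = 0.0818) or without lactation replicate 2 (adjusted p = 0.107). Pdhb, a subunit of pyruvate dehydrogenase, gave 2953 and 2869 at lactation against 1312, 1176 and 1182 at puberty. Pdhb rose by 1.25 log2 units (SE 0.15, adjusted p = 0.000255). Pdk1, a pyruvate dehydrogenase kinase, was higher too, with log2 changes of 1.48 to 1.71 over the alternative fits. Idh1 fell by 2.05 log2 units (SE 0.18, adjusted p = 5.2e-05) and Idh2 by 1.36 (SE 0.13, adjusted p = 6.46e-05). The Idh1 value is also the lowest of the pentose phosphate and NADPH list. Dlst, of the oxoglutarate dehydrogenase complex, fell by 1.72 log2 units (SE 0.21, adjusted p = 0.000281). Of 63 genes of the respiratory chain 15 were called higher (23.8%, against 26.1% of all tested probe sets) and 17 lower (27%, against 21.8%), with a median of 0.02. These counts became 8 higher without lactation replicate 1, 7 higher under quantile normalization, 9 lower without lactation replicate 2 and 10 lower with a replicate block. The pentose phosphate and NADPH list had 3 genes called higher and 2 lower of 10, with 1 higher under quantile normalization and 1 higher without lactation replicate 1. In that list Me1, malic enzyme, rose by 0.95 log2 units (SE 0.22, adjusted p = 0.00742) but did not pass under quantile normalization (0.46, adjusted p = 0.144 in limma's test) or without lactation replicate 1 (0.82, adjusted p = 0.0963), and Tkt, transketolase, fell by 1.10 log2 units (SE 0.19, adjusted p = 0.00156).

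Among 16 measured pairs of related proteins, 9 had 1 gene called higher and the other lower. The pairs were chosen with earlier results of these data known, and the share of such opposite calls over other pairs was not computed. Of all tested probe sets 26.1% were called higher and 21.8% lower. In this count the rises of Eef1a1 and Cox6a1 did not hold under quantile normalization. The probe sets of Aldoa, Gja1, Cox6a1 and Ckm are of a type that related transcripts can share. For aldolase, Aldoc gave 2994 and 3491 at lactation against 66.5, 52.1 and 79.5 at puberty. Aldoc rose by 5.64 log2 units (SE 0.29, adjusted p = 3.38e-06), whereas Aldoa, the form of muscle and many other tissues, gave 1065 and 1422 at lactation against 4251, 3075 and 5198 at puberty. Aldoa fell by 1.73 log2 units (SE 0.24, adjusted p = 0.000449). Among the fat droplet proteins of the CIDE family, Cidea gave 14892 and 10789 at lactation against 550.5, 180.1 and 225 at puberty. Cidea rose by 5.49 log2 units (SE 0.43, adjusted p = 2.82e-05), whereas Cidec, the form of white fat, gave 44.5 and 72.9 at lactation against 894, 1319.8 and 1358 at puberty. Cidec fell by 4.36 log2 units (SE 0.30, adjusted p = 1.39e-05). For glucose uptake, Slc2a1 (GLUT1) gave 376 and 325 at lactation against 49.0, 39.9 and 9.28 at puberty. Slc2a1 rose by 3.36 log2 units (SE 0.40, adjusted p = 0.000224), whereas the insulin-regulated Slc2a4 (GLUT4) gave 172 and 139 at lactation against 260.3, 319.6 and 428 at puberty. Slc2a4 fell by 1.09 log2 units (SE 0.21, adjusted p = 0.00293). The adipocyte carrier Fabp4 gave 116 and 90.6 at lactation against 166, 178 and 197 at puberty. Fabp4 fell by 0.81 log2 units (SE 0.17, adjusted p = 0.00401), against the rise of Fabp3 given above. Of the connexins, Gjb2 gave 603 and 400.2 at lactation against 22.1, 12.5 and 19.8 at puberty. With 2 puberty arrays under the floor, the log2 change of Gjb2 was 4.57 (SE 0.26, adjusted p = 5.24e-06), and 3.30 with a floor of 50, whereas Gja1, the connexin of myoepithelium and stroma, gave 98.1 and 126 at lactation against 631, 495 and 384 at puberty. Gja1 fell by 2.15 log2 units (SE 0.21, adjusted p = 7.59e-05).

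Several pairs join a widely expressed form to one of striated muscle. Pgam1, phosphoglycerate mutase, rose by 1.23 log2 units (SE 0.13, adjusted p = 0.000145), while the muscle form Pgam2 went from 371, 176 and 677 to 2.91 and 2.76, under the floor, at least 17.7-fold lower. Cox6a1, of cytochrome oxidase, rose by 0.78 log2 units (SE 0.18, adjusted p = 0.00794) but was not called under quantile normalization (0.10) or without lactation replicate 1 or 2 (adjusted p = 0.0625 and 0.0509 in limma's test), while the muscle form Cox6a2 went from 575, 347 and 1018 to 10.4 and 5.30, at least 29.4-fold lower. Cox7a2 rose by 0.98 log2 units (SE 0.18, adjusted p = 0.00189), and Cox7a1 went from 152, 47.4 and 102 to 16.8 and 14.5, at least 4.51-fold lower, which did not pass with a floor of 50 (adjusted p = 0.197). Eef1a2, the elongation factor of muscle and neurons, fell by 2.04 log2 units (SE 0.42, adjusted p = 0.00393) from 694, 289.6 and 883 to 131 and 142, and was not called without lactation replicate 1 or 2 (adjusted p = 0.0665 and 0.055). Its partner Eef1a1 was given above. Ckm, muscle creatine kinase, is given below with the genes whose probe sets disagree. Ckb, the creatine kinase of brain and other tissues, was not called (log2 change 0.48, SE 0.21, adjusted p = 0.099) but passed without puberty replicate 3 (adjusted p = 0.0254). Atp2a2, the calcium pump of heart and many cells, was not called either (log2 change -0.88, SE 0.40, adjusted p = 0.103), and stood at -1.56 (adjusted p = 0.0175) without lactation replicate 2. The phosphofructokinases of platelets and of muscle, Pfkp and Pfkm, were both called lower, with 7.995 and 14.7 at lactation against 51.4, 73.2 and 64.1 at puberty for Pfkp and 119 and 104 at lactation against 453, 326 and 741 at puberty for Pfkm. Pfkp, under the floor at lactation, was at least 3.11-fold lower, which did not pass with a floor of 50 (adjusted p = 0.224). The desaturase Scd2 gave 2193 and 2226 at lactation against 665, 686 and 693 at puberty. Scd2 rose by 1.70 log2 units (SE 0.27, adjusted p = 0.00112), as its partner Scd1 did with the exceptions given above. The hexokinases Hk1 and Hk2, the lactate dehydrogenases Ldha and Ldhb, and Stat5a and Stat5b were not called, with log2 changes from -0.53 to 0.71 and adjusted p between 0.119 and 0.498 in limma's test.

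**Figure D3:**
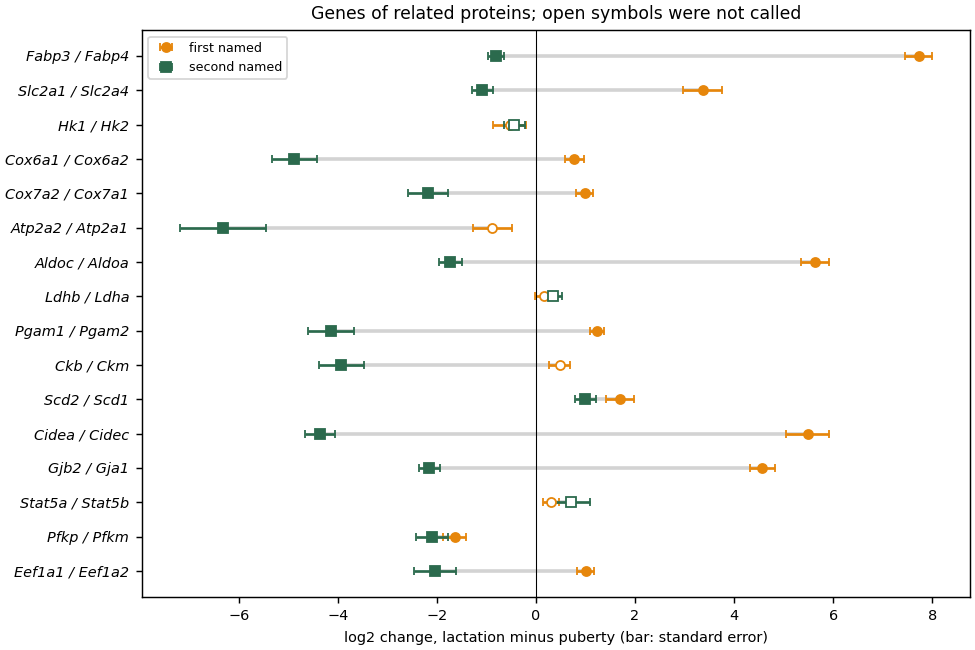
Log2 change at lactation against puberty with its standard error for the genes of 16 pairs of related proteins, circles for the gene named first and squares for the second, and open symbols for genes that were not called. The pairs Cidea and Cidec (5.49 and -4.36) and Fabp3 and Fabp4 (7.72 and -0.81) lie on opposite sides of 0, whereas the pair Hk1 and Hk2 has open symbols only.

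Markers of fat, muscle and connective tissue were lower at lactation. In a whole gland, fewer cells of a type and less RNA per cell of that type cannot be told apart. Of 17 white adipocyte markers 13 were called lower and 1 higher, with a median log2 change of -2.12, and their summed signal was 8811 to 8847 at lactation against 25702 to 31422 at puberty. Adipoq, the gene of adiponectin, gave 956 and 1049 at lactation against 4146, 4759 and 5204 at puberty. Adipoq fell by 2.22 log2 units (SE 0.19, adjusted p = 3.78e-05). Retn, the gene of resistin, gave 331 and 460.4 at lactation against 2901, 3813 and 3991 at puberty. Retn fell by 3.18 log2 units (SE 0.29, adjusted p = 5.4e-05), and Lipe, hormone-sensitive lipase, fell by 2.95 log2 units (SE 0.32, adjusted p = 0.00014). Rbp4, the plasma carrier of retinol, gave 26.5 and 33.3 at lactation against 536, 748 and 769 at puberty. Rbp4 fell by 4.51 log2 units (SE 0.26, adjusted p = 5.24e-06). Pparg, the master regulator of fat cells, went from 155, 199.7 and 186 to 5.09 and 4.13, under the floor (at least 8.96-fold lower, adjusted p = 5.24e-06 in limma's test). Adipoq, Retn and Lipe stayed above the floor at lactation, and no defining marker but Pparg fell under it. Lep, leptin, was not called (log2 change -0.16, SE 0.21, adjusted p = 0.554), and Agt, angiotensinogen, was the member called higher, with 919 and 508 at lactation against 67.8, 45.2 and 106 at puberty (log2 change 3.31, SE 0.48, adjusted p = 0.000621). Of 5 brown adipocyte markers 2 were called lower, Cox7a1 and Cox8b, and none higher. Cox7a1 is given above among the muscle forms, and the authors clustered Cox8b with Myl1 and Casq1, so these 2 falls are not particular to brown fat. Ucp1, the uncoupling protein of brown fat, varied over the puberty arrays (643, 106 and 33.1) and was under the floor at lactation (14.5 and 8.16). Its fall of at least 2.71 log2 units (SE 1.02) did not pass (adjusted p = 0.0545). Ucp1 passed in 6 of 19 alternative fits, among them with no floor above a signal of 1 (log2 change -3.59, adjusted p = 0.0155 in limma's test). It stood at -1.57 (adjusted p = 0.0688) without puberty replicate 1 and at -3.71 (adjusted p = 0.0076) without puberty replicate 3.

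The largest falls were those of skeletal muscle genes. Of 27 tested 24 were called lower and none higher, with a median of -3.43, and 14 lay under the floor on both lactation arrays. The summed signal was 17010.5 to 44253 at puberty, so that the 3 puberty arrays differed among themselves, and 1331 to 1492 at lactation. Acta1, skeletal actin, went from 5607, 3529.7 and 7845 to 6.23 and 5.62, at least 269-fold lower (adjusted p = 0.000418 in limma's test). Myh4, a fast myosin, went from 4213, 2009.6 and 4818 to 1.35 and 0.742, at least 172-fold lower, and Actn3, fast α-actinin, from 928, 546 and 2239 to 15.0 and 15.9, at least 52.2-fold lower. Tnnt3 and Myh1, a fast troponin and a fast myosin, were at least 51.9-fold and 31.9-fold lower. Atp2a1, the calcium pump of fast fibres, gave 54.4 and 28.6 at lactation against 3041, 1977 and 5217 at puberty. Atp2a1 fell by 6.32 log2 units (SE 0.88, adjusted p = 0.000495), Myl1, a myosin light chain, fell by 5.88 log2 units (SE 0.52, adjusted p = 5.16e-05), and Casq1, calsequestrin, fell by 4.43 log2 units (SE 0.50, adjusted p = 0.000174). Tnnc2, a fast troponin, and Pygm, muscle glycogen phosphorylase, each had 1 lactation array under the floor, so that their changes depend on it. Tnnc2 fell by 5.51 log2 units (SE 0.51, adjusted p = 6.19e-05), and its log2 change was -4.21 with a floor of 50. Pygm gave 25.3 and 2.23 at lactation against 710.1, 351 and 1368 at puberty, and its log2 change of -4.96 (SE 0.48, adjusted p = 7.59e-05) became -3.80 with a floor of 50. In Acta1, Myh4, Actn3 and Atp2a1 puberty replicate 3 was the highest array and puberty replicate 2 the lowest. The muscle markers were high on the puberty arrays, and their part in the falls of Pgam2, Eno3, Cox6a2, Cox7a1, Cox8b, Pfkm and Eef1a2 was not tested.

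Of 33 genes of stroma and matrix 28 were called lower and 1 higher, with a median of -1.57 and summed signals of 7731 to 9795 at lactation against 25249.5 to 32136 at puberty. Col3a1, a fibrillar collagen, gave 298 and 345 at lactation against 2938, 2561 and 1708 at puberty. Col3a1 fell by 2.87 log2 units (SE 0.22, adjusted p = 2.15e-05). Col6a3, of collagen VI, gave 152 and 204 at lactation against 1768, 1762 and 1390.1 at puberty. Col6a3 fell by 3.21 log2 units (SE 0.17, adjusted p = 3.96e-06), and Dpt, dermatopontin, fell by 3.44 log2 units (SE 0.17, adjusted p = 3.26e-06). Dcn, decorin, kept a bright signal, with 1895 and 1745 at lactation against 3085, 3244 and 3339 at puberty (log2 change -0.82, SE 0.13, adjusted p = 0.000797). Tnc, tenascin C, was the member called higher (log2 change 2.38, SE 0.36, adjusted p = 0.000755). Of the basement membrane genes 8 of 17 were called lower and 2 higher (1 higher without lactation replicate 2 or any puberty array). Col4a1 gave 532 and 524 at lactation against 1306, 1135 and 1068 at puberty. Col4a1 fell by 1.14 log2 units (SE 0.14, adjusted p = 0.000241), and Hspg2, perlecan, fell by 3.17 log2 units (SE 0.39, adjusted p = 0.000285). Of 14 endothelial markers 10 were called lower and 1 higher, with a median of -1.14. Cdh5, VE-cadherin, gave 118 and 129 at lactation against 290.5, 269 and 248 at puberty. Cdh5 fell by 1.12 log2 units (SE 0.15, adjusted p = 0.000374), while Vwf went from 146, 147 and 115 to 9.35 and 11.6, under the floor, at least 6.75-fold lower. Pecam1 was the member called higher, with 154 and 117 at lactation against 50.3, 46.3 and 80.3 at puberty (log2 change 1.23, SE 0.37, adjusted p = 0.0245), and it did not pass without lactation replicate 1 or 2 (adjusted p = 0.19 and 0.088) or without puberty replicate 1 or 2 (adjusted p = 0.068 and 0.0743).

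**Figure D4:**
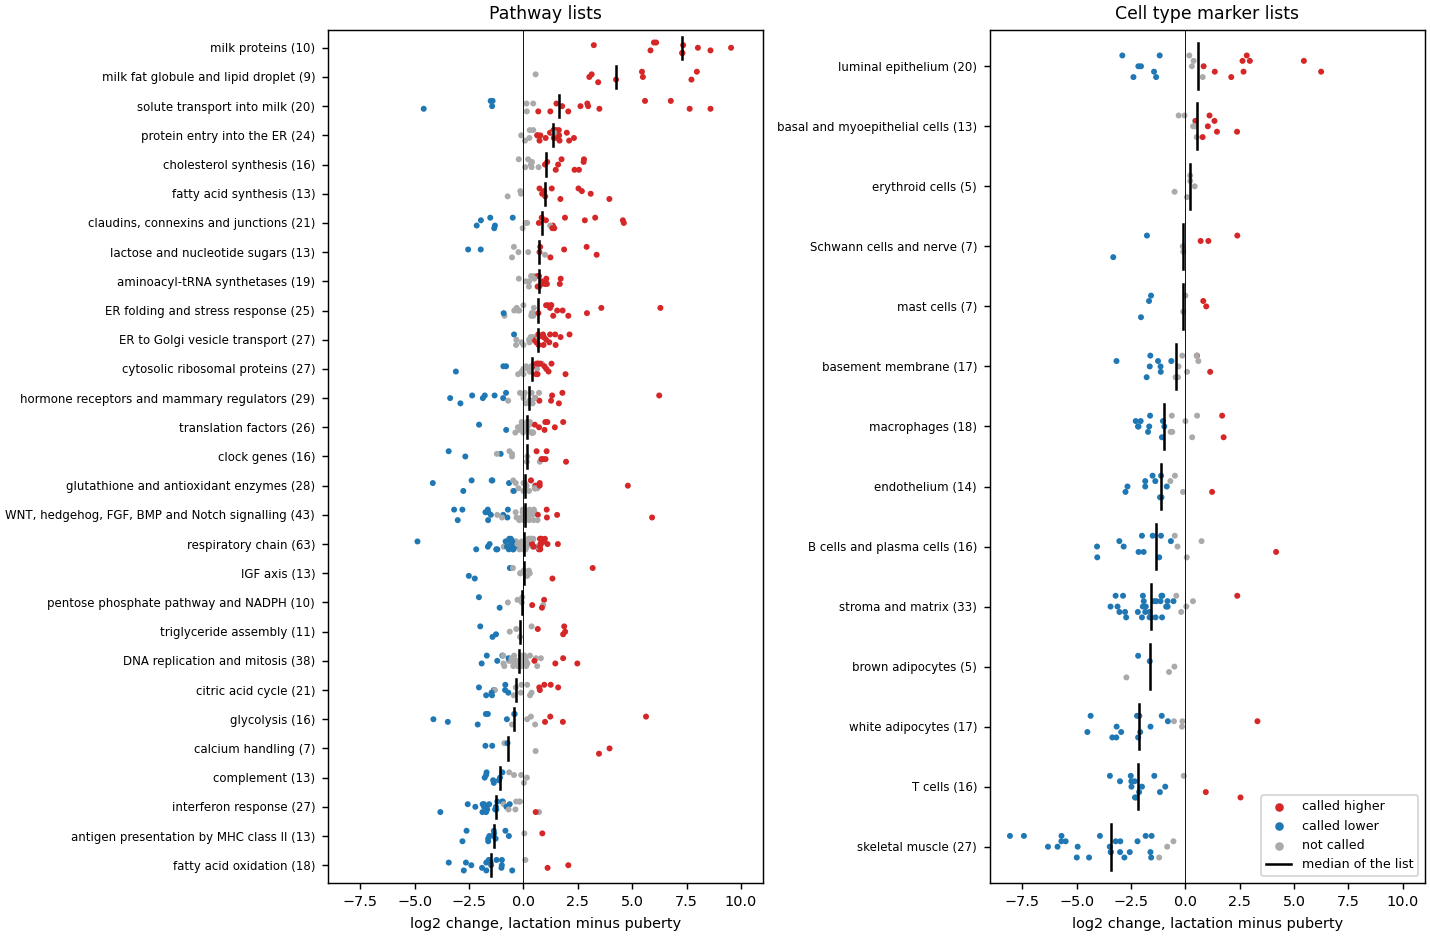
Log2 change at lactation against puberty of every tested gene of the pathway lists and of the cell type marker lists, with the number tested in brackets and the list's median as a black bar. Red points were called higher, blue points lower and grey points neither. Milk proteins (median 7.30) and skeletal muscle (median -3.43) lie at the 2 ends.

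The markers of luminal epithelium were called in both directions. Of 20 genes 9 were called higher and 7 lower (4 lower with a floor of 50). The summed signal was 15987 to 18233 at lactation against 3437 to 5199.5 at puberty. Most of the lactation sum came from Cd24a, Muc1 and Elf5, so it does not describe the list as a whole. The part of luminal cell number in the rises of milk, lipid and secretory genes was not tested. Elf5, a transcription factor of the alveolar lineage, gave 3561 and 2456 at lactation against 40.7, 42.5 and 34.6 at puberty. Elf5 rose by 6.24 log2 units (SE 0.21, adjusted p = 8.51e-07). Cd24a, a surface glycoprotein, gave 7411 and 6164 at lactation against 861, 1139 and 664 at puberty. Cd24a rose by 2.96 log2 units (SE 0.21, adjusted p = 1.72e-05), and Epcam rose by 2.11 log2 units (SE 0.21, adjusted p = 9.95e-05). Foxa1, a factor of hormone-sensing luminal cells, went from 110.3, 217 and 139 to 1.14 and 4.13, under the floor, at least 7.47-fold lower (adjusted p = 0.00033 in limma's test). The keratins Krt19 and Krt18 fell, with 121 and 302 at lactation against 1331, 1016 and 740.2 at puberty for Krt19 (log2 change -2.39, SE 0.38, adjusted p = 0.00105) and 220.4 and 213 at lactation against 733, 682 and 409.6 at puberty for Krt18 (log2 change -1.44, SE 0.27, adjusted p = 0.00236). Krt19 stood at -1.73 without lactation replicate 1 and at -3.05 without lactation replicate 2. Krt8, their partner in luminal filaments, was not called (log2 change 0.18, SE 0.28, adjusted p = 0.62). Kit, a marker of luminal progenitors and of mast cells, fell by 2.04 log2 units (SE 0.29, adjusted p = 0.000559), and Prom1, a marker of hormone-sensing cells, fell by 2.16 log2 units (SE 0.32, adjusted p = 0.000742). Kit did not pass with a floor of 50 (adjusted p = 0.0696 in limma's test).

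Among basal and myoepithelial markers 7 of 13 were called higher and none lower, with a median of 0.52. Cnn1, calponin of smooth muscle, gave 507 and 394 at lactation against 84.5, 95.8 and 79.0 at puberty. Cnn1 rose by 2.37 log2 units (SE 0.19, adjusted p = 3.34e-05). Acta2, smooth muscle actin, gave 994 and 1109.9 at lactation against 607, 388 and 492 at puberty. Acta2 rose by 1.11 log2 units (SE 0.20, adjusted p = 0.00225), and Myh11, smooth muscle myosin, rose by 1.45 log2 units (SE 0.14, adjusted p = 7.68e-05). Trp63, the transcription factor of basal cells, was not called (log2 change 0.45, SE 0.31, adjusted p = 0.263), nor was Krt5, a basal keratin (32.6 and 8.27 at lactation and under the floor on all puberty arrays), which passed without lactation replicate 2 (adjusted p = 0.00284). Vessel walls also express Cnn1, Acta2 and Myh11. Of the junction genes 11 of 21 were called higher and 6 lower. Cldn8, a claudin of tight epithelia, gave 759 and 584 at lactation against 31.9, 23.7 and 26.6 at puberty. Cldn8 rose by 4.61 log2 units (SE 0.22, adjusted p = 2.94e-06). Cldn7 rose by 2.82 log2 units (SE 0.28, adjusted p = 8.19e-05) and Cldn3 rose by 1.35 log2 units (SE 0.32, adjusted p = 0.00788). Cldn5, the claudin of endothelium, fell by 1.53 log2 units (SE 0.25, adjusted p = 0.00117). Cldn4, a claudin of the luminal list, was also called lower (log2 change -1.35). It did not pass with a floor of 50 or without puberty replicate 1 (adjusted p = 0.119 and 0.107 in limma's test). Cldn3 did not pass without lactation replicate 1 or 2 (adjusted p = 0.0779 and 0.0882).

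Among hormone receptors and regulators 7 of 29 genes were called higher (24.1%, against 26.1% of all tested probe sets) and 8 lower (27.6%, against 21.8%). Ghr, the growth hormone receptor, gave 92.8 and 109 at lactation against 491, 533 and 528 at puberty. Ghr fell by 2.36 log2 units (SE 0.15, adjusted p = 9.59e-06). Akt1, a kinase of insulin signalling, gave 1239.8 and 997 at lactation against 354, 315 and 298 at puberty. Akt1 rose by 1.79 log2 units (SE 0.17, adjusted p = 8.07e-05), whereas its relative Akt2 gave 205 and 192 at lactation against 629, 607 and 829 at puberty. Akt2 fell by 1.78 log2 units (SE 0.21, adjusted p = 0.000198). Cish, a target and inhibitor of STAT5, rose by 1.63 log2 units (SE 0.24, adjusted p = 0.000682), while Socs3, an inhibitor of STAT3 signalling, fell by 1.87 log2 units (SE 0.30, adjusted p = 0.00116). The inhibitor of differentiation Id1 went from 216, 222 and 186 to 12.7 and 10.9, under the floor, at least 10.4-fold lower, and its relative Id2 rose by 0.73 log2 units (SE 0.17, adjusted p = 0.00839), but did not pass without lactation replicate 1 (adjusted p = 0.0844). Jak2 and Gata3, a factor of luminal cells, were not called (log2 changes -0.16 and 0.37, adjusted p = 0.621 and 0.181). Esr1, the oestrogen receptor, gave 72.0 and 36.5 at lactation against 24.1, 9.46 and 10.5 at puberty. Esr1 rose by 1.27 log2 units (SE 0.45, adjusted p = 0.0465), a call lost without any 1 of the 5 arrays (adjusted p = 0.0739 to 0.369). In the IGF axis 2 of 13 genes were called higher (15.4%, against 26.1%) and 3 lower (23.1%, against 21.8%). Igfals, the acid-labile subunit that binds IGF complexes, gave 2169 and 2647 at lactation against 219.9, 282 and 296 at puberty. Igfals rose by 3.18 log2 units (SE 0.16, adjusted p = 3.25e-06). The IGF-binding protein Igfbp6 fell by 2.24 log2 units (SE 0.14, adjusted p = 9.65e-06) and Igfbp4 fell by 2.51 log2 units (SE 0.26, adjusted p = 0.000103), and Igf1 was not called (log2 change 0.03, SE 0.30, adjusted p = 0.952). In WNT, hedgehog, FGF, BMP and Notch signalling 5 of 43 were called higher and 11 lower, a count of lower calls that became 7 with a floor of 50, while higher calls became 2 with a filter of 100 and 8 without lactation replicate 2. The 5 higher were 11.6% of that list and the 11 lower 25.6%, against 26.1% and 21.8% of all tested probe sets. Notch1, a receptor of cell fate decisions, gave 23.5 and 18.2 at lactation against 139, 132 and 192 at puberty. Notch1 fell by 2.81 log2 units (SE 0.25, adjusted p = 4.83e-05). Tgfb1, a growth inhibitor, gave 14.1 and 28.7 at lactation against 249, 255 and 165 at puberty. Tgfb1 fell by 3.19 log2 units (SE 0.34, adjusted p = 0.000125). Notch4 was at 17.9, 16.7 and 11.7 at puberty and at 1677 and 867 at lactation by a probe set of the type shared by related transcripts, at least 60.3-fold higher, but a second probe set of Notch4 gave 33.0 and 34.2 at lactation against 36.2, 27.2 and 34.9 at puberty (log2 change 0.05, SE 0.21, adjusted p = 0.87).

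Immune genes were mostly lower. Of 16 T cell markers 13 were called lower (8 with a filter of 100) and 2 higher (1 of them Cd6, whose probe sets disagree), with a median of -2.20, and the summed signal was 959 to 1055 at lactation against 2295 to 2807 at puberty. Cd3e, of the T cell receptor complex, gave 26.2 and 20.1 at lactation against 270.2, 254 and 241 at puberty. Cd3e fell by 3.47 log2 units (SE 0.34, adjusted p = 8.9e-05), and Cd8b1 went from 165, 152 and 167 to 3.22 and 3.50, under the floor, at least 8.05-fold lower. Of 16 markers of B and plasma cells 11 were called lower and 1 higher (2 higher without puberty replicate 3), with summed signals of 2029 to 3062 at lactation against 5334 to 5596 at puberty. Cd79b, of the B cell receptor, gave 14.5 and 67.6 at lactation against 623, 629 and 581 at puberty. Cd79b fell by 4.05 log2 units (SE 0.43, adjusted p = 0.000124), with -3.17 without lactation replicate 1 and -4.93 without lactation replicate 2. Ltb, lymphotoxin β of lymphoid tissue, gave 25.5 and 169.9 at lactation against 1103, 1083 and 1121 at puberty. Ltb fell by 4.06 log2 units (SE 0.62, adjusted p = 0.000797), with -2.70 and -5.43 in the same fits. Igha, the heavy chain of IgA, the antibody of milk, was the exception, with 942 and 770.4 at lactation against 33.9, 82.8 and 37.7 at puberty. Igha rose by 4.17 log2 units (SE 0.40, adjusted p = 7.68e-05). Pigr, which carries IgA across the epithelium, gave 13244 and 10187 at lactation against 123, 111 and 128 at puberty. Pigr rose by 6.60 log2 units (SE 0.34, adjusted p = 3.38e-06).

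Of 18 macrophage markers 10 were called lower and 2 higher (4 higher without lactation replicate 1, 1 without lactation replicate 2). Csf1r, the receptor for their growth factor, gave 119.8 and 191 at lactation against 444, 531 and 467 at puberty. Csf1r fell by 1.66 log2 units (SE 0.20, adjusted p = 0.000228), but a second probe set of Csf1r was called higher (log2 change 1.52). Lyz2, lysozyme, fell by 2.18 log2 units (SE 0.22, adjusted p = 9.95e-05). Cd14, a receptor for bacterial lipopolysaccharide, went up, with 888 and 1596 at lactation against 387, 325 and 400.4 at puberty (log2 change 1.69, SE 0.33, adjusted p = 0.00315), but did not pass without lactation replicate 2 (adjusted p = 0.0668). Of the genes of antigen presentation by MHC class II 11 of 13 were called lower and 1 higher, with a median of -1.36. Cd74, the invariant chain, gave 1799.6 and 2209 at lactation against 5016, 5163 and 5217 at puberty. Cd74 fell by 1.36 log2 units (SE 0.20, adjusted p = 0.000659). Ifi30, a thiol reductase of antigen processing, was the member called higher (log2 change 0.87, SE 0.19, adjusted p = 0.00593), though not without lactation replicate 1 (adjusted p = 0.0707). In the interferon list 19 of 27 were called lower and 1 higher, with a median of -1.25. Irf8, a factor of myeloid and B cells, gave 5.19 and 22.5 at lactation against 315, 289 and 298 at puberty. Irf8 fell by 3.82 log2 units (SE 0.15, adjusted p = 1.84e-06). The immunoproteasome gene Psmb8 gave 124 and 134 at lactation against 684, 797 and 812 at puberty. Psmb8 fell by 2.57 log2 units (SE 0.13, adjusted p = 3.39e-06), and Ifitm3 fell by 1.81 log2 units (SE 0.22, adjusted p = 0.000258). Mx2 was the member called higher (log2 change 0.56, SE 0.16, adjusted p = 0.0185), though not without lactation replicate 1 (adjusted p = 0.0502) or without puberty replicate 1 or 3 (adjusted p = 0.0554 and 0.0608). Of the complement genes 8 of 13 were called lower and none higher, and C1qb, of the first complement component, had the smallest adjusted p, with 243 and 242 at lactation against 847, 795 and 758 at puberty (log2 change -1.72, SE 0.11, adjusted p = 9.89e-06). Lymphocyte and macrophage markers fell beside these lists, and their part in them was not tested.

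Cell division genes were called in both directions, and most were not called. The shares were 10.5% higher and 13.2% lower, against 26.1% and 21.8% of all tested probe sets. Of 38 genes 4 were called higher and 5 lower, and lower calls ranged from 2 without lactation replicate 1 to 11 in a robust fit, with 8 without puberty replicate 3, while 2 were called higher without lactation replicate 1 or 2. Mki67, a mark of cycling cells, gave 145 and 124 at lactation against 65.4, 41.4 and 18.4 at puberty. Mki67 rose by 1.82 log2 units (SE 0.43, adjusted p = 0.00775), but did not pass without lactation replicate 1 or 2 (adjusted p = 0.0967 and 0.0677). Mcm4, of the replication helicase, gave 19.1 and 30.5 at lactation against 108, 96.1 and 79.3 at puberty. Mcm4 fell by 1.92 log2 units (SE 0.26, adjusted p = 0.000427), and Pcna was not called (log2 change -0.37, SE 0.16, adjusted p = 0.0926). Among 16 clock genes 6 were called higher (2 without lactation replicate 2, 3 without lactation replicate 1 or puberty replicate 2) and 3 lower. Rora and Cry1 were higher, with log2 changes of 1.74 to 2.06 and 0.88 to 1.04 over the alternative fits. Tef, a PAR-domain factor, gave 28.6 and 37.9 at lactation against 313, 346 and 422 at puberty. Tef fell by 3.44 log2 units (SE 0.30, adjusted p = 4.25e-05), and its relative Dbp went from 72.9, 154 and 185 to 7.06 and 4.13, under the floor, at least 6.39-fold lower, which did not pass with a floor of 50 (adjusted p = 0.0814 in limma's test). The hour at which tissue was taken is not given in the sources used here. Of 28 antioxidant genes 6 were called higher (3 without puberty replicate 2) and 7 lower. These are 21.4% and 25%, against 26.1% and 21.8% of all tested probe sets. Prdx4, the peroxiredoxin of the ER, gave 4531 and 2927 at lactation against 139.6, 119.7 and 134 at puberty. Prdx4 rose by 4.80 log2 units (SE 0.24, adjusted p = 3.1e-06), while Gpx3, the plasma glutathione peroxidase, gave 581 and 772 at lactation against 4989.7, 4627 and 4118 at puberty. Gpx3 fell by 2.77 log2 units (SE 0.16, adjusted p = 6.09e-06). Gstm2, a glutathione transferase, gave 6.44 and 30.6 at lactation against 388, 479.9 and 476 at puberty. Gstm2 fell by 4.17 log2 units (SE 0.25, adjusted p = 7.47e-06). Cmbl, a hydrolase outside the lists, gave 31.5 and 44.2 at lactation against 503, 715 and 824 at puberty. Cmbl fell by 4.16 log2 units (SE 0.32, adjusted p = 2.65e-05). None of the 5 erythroid markers was called in limma's test, nor at an unadjusted p below 0.05, although 2 were called higher without lactation replicate 1, with no floor above a signal of 1 or with a constant of 16 added, and 1 lower under quantile normalization. Of 7 mast cell markers 2 were called higher (1 without either lactation array or without puberty replicate 1 or 2) and 3 lower. In the list of Schwann cells and nerve 3 of 7 were called higher and 2 lower, among them Sox10, which mammary epithelium also expresses, with 957 and 813 at lactation against 199, 134 and 179.6 at puberty (log2 change 2.39, SE 0.23, adjusted p = 7.24e-05), and Pmp22, with 46.6 and 40.9 at lactation against 386, 481 and 446 at puberty (log2 change -3.32, SE 0.16, adjusted p = 2.94e-06).

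Some of the largest rises fell outside these groups. Saa2, an acute phase apolipoprotein, gave 898 and 6856 at lactation against 13.2, 21.0 and 10.2 at puberty. Saa2 rose by 6.93 log2 units (SE 0.68, adjusted p = 8.38e-05), and stood at 8.40 without lactation replicate 1 and 5.47 without lactation replicate 2. Its probe set is of a type that related transcripts can share. Ceacam10, of a family of cell adhesion proteins, went from 1.24, 1.27 and 1.56 to 1363 and 1021, at least 59.0-fold higher, by a probe set of the same type, and a second probe set also rose, with 381 and 315 at lactation against 10.5, 6.63 and 13.2 at puberty. Cck, the gut hormone cholecystokinin, went from 3.52, 17.6 and 9.57 to 883 and 436, at least 31.0-fold higher. Pip, a prolactin-induced secretory protein, went from 4.95, 0.877 and 8.40 to 379 and 515, at least 22.1-fold higher.

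The other 4 arrays show where these genes stood before and after lactation, although each comparison below uses the same lactation arrays. Lactation differed from day 14 of pregnancy in 41.2% of probe sets and from day 4 of involution in 45.1%. The involution arrays stood apart in the 3′ to 5′ ratio of Gapdh (4.34 and 4.71 against 1.43 and 1.29 at lactation), and its part in that difference was not tested. With the spread taken from the lactation and puberty arrays alone, 4335 probe sets were called between lactation and puberty. Csn1s1 was already at 9963 and 9064 in pregnancy and Csn2 at 5331 and 4973, and neither passed between pregnancy and lactation, with log2 changes of 1.51 (adjusted p = 0.384) and 1.52 (adjusted p = 0.23). Wap, by contrast, was at 705 and 1249 in pregnancy and at 576 and 519 at involution, with log2 changes at lactation of 4.94 (adjusted p = 0.0191) and 5.72 (adjusted p = 0.00925) against them. Lalba was at 113 and 78.4 in pregnancy and at 145 and 307 at involution, far below both lactation arrays, with log2 changes of 7.76 (adjusted p = 2.08e-05) and 6.60 (adjusted p = 2.56e-05). Slc34a2 was at 47.2 and 60.8 in pregnancy and under the floor at involution, at 8.60 and 7.28, and Pip was under the floor on every array of the other stages.

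Other rises had a different course. Fabp3 was at 355 and 378 in pregnancy and under the floor at involution, at 5.32 and 7.28. Gjb2 was higher in pregnancy, at 1064 and 1414, than at lactation, with a log2 change at lactation of -1.32 (adjusted p = 0.00636). Cck was at 972 and 944 at involution, a difference from lactation that did not pass, with a log2 change of -0.63 (adjusted p = 0.153). Igha reached 5856 and 9319 at involution, above both lactation arrays, with a log2 change at lactation of -3.12 (adjusted p = 0.000681), and Saa2 was at 11.5 and 26.4 in pregnancy and 275 and 189.7 at involution.

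Among the falls, muscle genes differed in where lactation stood against the other stages. Acta1 was at 467 and 3.03 in pregnancy and 48.3 and 128 at involution, and Atp2a1 was at 168 and 20.8 in pregnancy and 23.4 and 87.5 at involution. Neither passed at lactation against these stages (adjusted p = 0.16 and 0.207 for Acta1, 0.659 and 0.894 for Atp2a1). Myl1 was at 313 and 95.6 in pregnancy and 253 and 208 at involution against 42.9 and 70.3 at lactation, and was lower at lactation than in both, with log2 changes of -1.66 (adjusted p = 0.0466) and -2.06 (adjusted p = 0.0181). Rbp4, Cidec, Cd79b and Slc1a5 were lowest at lactation. Rbp4 was at 293 and 184 in pregnancy and 1048 and 766 at involution, with log2 changes at lactation of -2.97 (adjusted p = 0.000142) and -4.92 (adjusted p = 1.14e-05). Cidec was at 576 and 349.9 in pregnancy and 473 and 605 at involution. Cd79b was at 288 and 187 in pregnancy and 686 and 576 at involution, and Slc1a5 at 334 and 215 in pregnancy and 594 and 736 at involution. All of these values lay above both lactation arrays of the gene (adjusted p = 0.000262, 0.00253 and 0.002 against pregnancy).

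**Figure D5:**
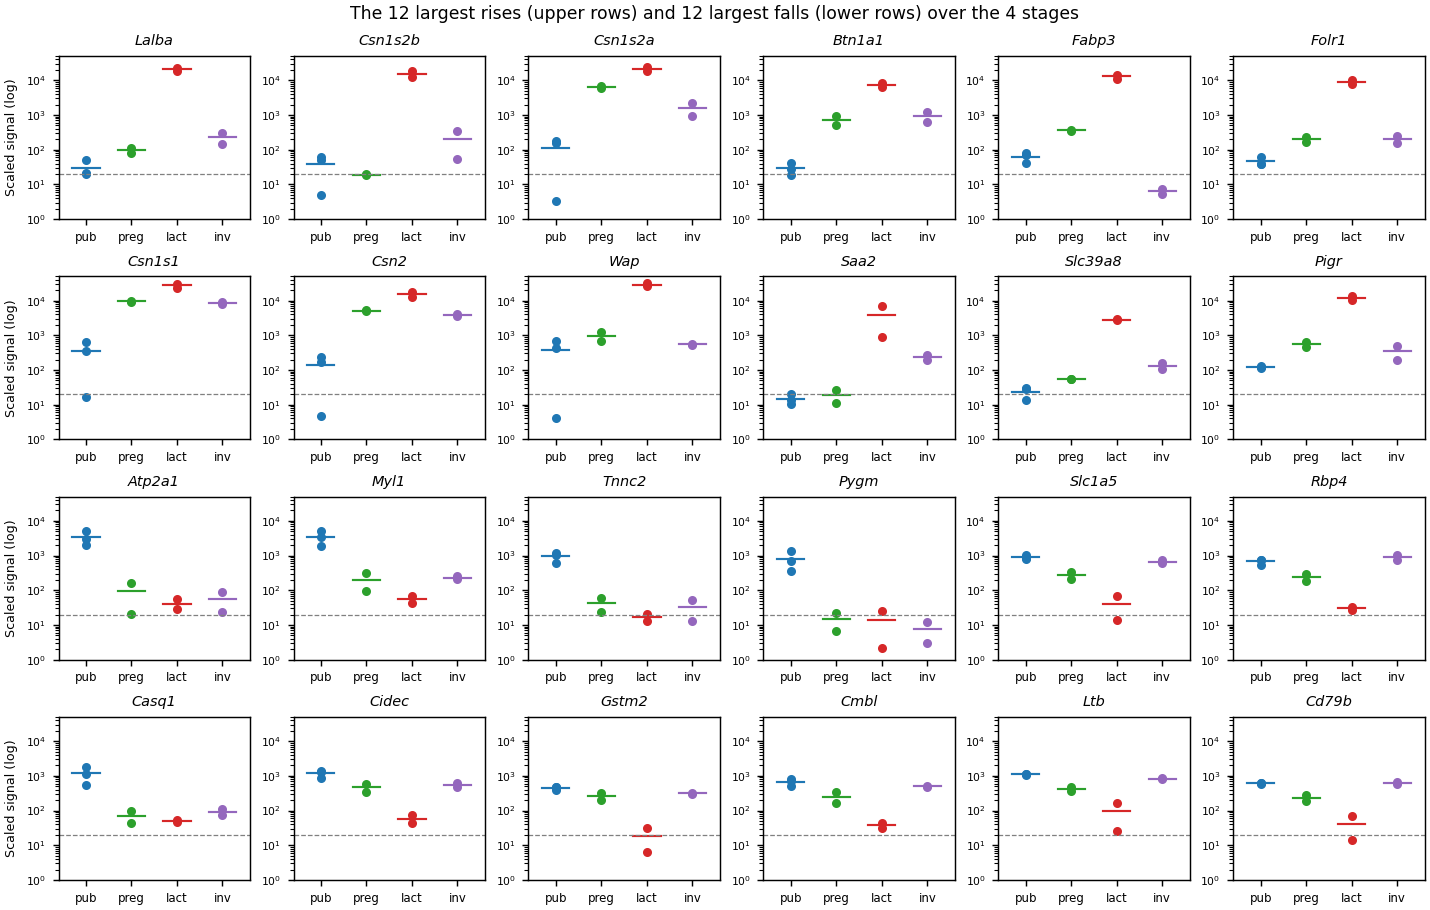
Scaled signal on a log axis for the 12 largest rises and the 12 largest falls with both groups measured, at the 4 stages in developmental order (3 arrays at puberty, 2 at each other stage), with 1 point per array, the stage mean as a bar and the floor of 20 as a dashed line. Lalba stands far above its other stages at lactation, muscle genes such as Atp2a1 are highest at puberty, and Rbp4 and Cidec are lowest at lactation.

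Probe sets of 1 gene did not always agree. Of 1389 genes with at least 2 tested probe sets, 403 had 2 or more called, and 94 of these had calls in both directions. Ckm had 1 probe set that went from 324, 160.1 and 549 to 13.2 and 14.1, under the floor, at least 15.3-fold lower, and another that rose by 1.35 log2 units (SE 0.34, adjusted p = 0.0114), the second of which did not pass without lactation replicate 1 or 2 (adjusted p = 0.0833 and 0.0908). Rpl22, a ribosomal protein, had 1 that gave 14.6 and 21.5 at lactation against 195, 177 and 166 at puberty (log2 change -3.11, SE 0.22, adjusted p = 1.54e-05) and 1 that gave 129.6 and 99.4 at lactation against 22.4, 30.9 and 22.3 at puberty (log2 change 2.19, SE 0.32, adjusted p = 0.000701). Cd6, a surface receptor of T cells, had 1 that went from 104, 137 and 92.2 to 6.44 and 4.03, at least 5.48-fold lower, and 1 that rose by 2.53 log2 units (SE 0.34, adjusted p = 0.000394). Bphl, a hydrolase, had probe sets that fell by 1.46 log2 units (SE 0.17, adjusted p = 0.000209) and that rose by 3.39 log2 units (SE 0.31, adjusted p = 5.98e-05). Ighm, the heavy chain of IgM, had 1 that fell by 4.06 log2 units (SE 0.36, adjusted p = 5.36e-05), with -3.35 and -4.78 without lactation replicate 1 and 2, and 1 that was under the floor at puberty and at 498 and 528 at lactation, and the latter reached 3814 and 4074 at involution, as Igha did. In the counts of lists and in the plot of pairs each gene stands by its brightest tested probe set. That was one that fell for Ckm, Rpl22, Ighm and Csf1r and the one that rose for Cd6 and Acads. Those entries rest on probe sets that others of the gene contradict. They are not the only ones: probe sets of Tpm2 (skeletal muscle list) were called at log2 changes of 0.67 and -3.21. Those of Col1a2 (stroma) were called at 0.88 and -2.72, and those of Col18a1 (basement membrane) at 1.32 and -3.12 at the extremes.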

How the data were processed

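The deposited values are linear signal intensities, 1 per probe set and array, which the authors made with the Affymetrix algorithm MAS5 (named in the submitters' processing notes, version not stated) from arrays hybridised singly. Their mean after trimming was the same on all 9 arrays. Here control probe sets were removed, each array was scaled to the mean of the 9 arrays' medians and signals were floored at 20. Log2 values were fitted with limma 3.58.1 in R 4.3.3 (a mean for each stage over all 9 arrays, eBayes with a trend), so that the 4 arrays of pregnancy and involution share in the estimate of spread. The Benjamini-Hochberg adjustment ran across all 9783 probe sets whose mean exceeded 20 in some stage. The procedure was tested on simulated data.

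Probe sets were named through the platform annotation, with symbols updated through RefSeq: 10833 had 1 gene symbol, 396 several and 1193 none listed. A gene is shown by its brightest tested probe set. Probe set values depend on the probes, so levels were not compared between genes, and the number of arrays limits the precision.

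The comparison, the gene lists and the pairs were chosen with earlier results of these data known. Named genes were the 12 largest rises and falls with both groups measured, the 5 largest with 1 group under the floor, up to 4 members of each list with the smallest adjusted p, the measured pairs and the 5 genes with the widest opposite calls, and further list members were named for their known roles after their values were seen. Alternatives changed the scaling, floor, filter, model and arrays used. Promoter windows are from RefSeq (GRCm38.p6).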

Additional observations from a re-analysis of the deposited data

How the results depend on the processing

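The count of probe sets called (4680, with 54.5% higher) ranged from 3397 with a filter of 100 and 3461 with a floor of 50 to 5504 in a robust fit. In the robust fit Slc34a2, Pip, Ceacam10 and Pgam2, each with 1 group wholly under the floor, kept log2 changes of 8.60, 4.47, 5.88 and -4.21. Their standard errors there were 344 (Pgam2) to 131116 (Ceacam10), so that fit gave no usable test of them, and its count is to be read with that limit. The share called higher was 47.8% on the values as deposited, 50.6% under quantile normalization, and 58.0% and 58.6% without lactation replicate 1 and 2. Leaving out 1 array gave 3915 to 4434 calls. The labels number the replicates in each stage, and with the replicate number as a block (replicate block) 4034 probe sets were called, 2158 higher and 1876 lower, of which 3886 were also called in the same direction without it. The deviations of same-numbered arrays from their stage means had correlations of -0.153 to 0.049. In a stage of 2 arrays the deviations are equal and opposite, so each of these values recurs with the other sign between differently numbered arrays. Whether arrays of the same number share more than the number therefore cannot be told from them.

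Over the alternatives, 5394 values of named probe sets kept their direction and their side of the threshold, 101 kept it but no longer passed, 28 passed newly and 34 changed sign. Of these, 27 were values of 10 probe sets that did not pass in either fit, up to 1.11 in size (Ighm without lactation replicate 1). The other 7, which passed in at least 1 of the fits, turned under quantile normalization: Eef1a1 (-0.40), Rplp0 (-0.17), Rps24 (-0.17), Rps28 (-0.14), Tpt1 (-0.33), Scd1 (-0.48) and Fasn (-0.076). The same setting turned the medians of ribosomal proteins (-0.16), translation factors (-0.048) and glutathione enzymes (-0.016). Values as deposited turned those of the WNT and related list (-0.048) and of glutathione enzymes (-0.011). A filter of 100 turned those of lactose and nucleotide sugars (-0.44), clock genes (-0.53) and erythroid markers (-0.14). Leaving out 1 array turned some medians, which ranged from -0.12 (without lactation replicate 2) to 0.77 for lactose and nucleotide sugars, from -0.016 (without either lactation array) to 0.071 for the WNT and related list, from -0.34 to 0.045 (without lactation replicate 1) for DNA replication, from -0.048 (without lactation replicate 1) to 0.20 for clock genes and from -0.065 (without lactation replicate 1) to 0.18 for glutathione enzymes. A mean over a gene's probe sets gave calcium handling 0.035. The cause of these changes was not tested.

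The comparison rests on 2 lactation arrays, and leaving out 1 of them ended more calls among named genes than leaving out a puberty array did. Signals near the floor carry no order: genes under it in 1 group have a lower bound of change, and of 4 equal groups by mean signal the dimmest had 31.5% of its probe sets called and the brightest 64.8%.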
